A study of Mus musculus with 42 samples.

Results

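The genes described here are 10 widely used markers of microglia, *C1qa*, *C1qb*, *C1qc*, *Cx3cr1*, *P2ry12*, *Tmem119*, *Aif1*, *Csf1r*, *Trem2* and *Tyrobp*. They were taken by symbol from the deposited expression table, which holds 25700 genes, and all 10 were found. The table gives FPKM, sequenced fragments scaled by transcript length and library size, for 42 retinas of C57BL/6J mice, 1 retina per mouse, in 7 groups of 6. Groups of hypoxic mice breathed 7% oxygen for 6 h (07-06h-ZH) or 14% oxygen at normal pressure for 6 h (14-06h-ZH), 48 h (14-48h-ZH) or 11 weeks (14-11w-ZH), all kept in Zurich. In 2 hypobaric groups the mice stayed at the Jungfraujoch station, 3450 m above sea level, for 48 h (14-48h-JFJ) or 7 weeks (14-07w-JFJ), where the thin air corresponds to about 14% oxygen. The control group (Normoxia) breathed 21% oxygen in Zurich for 11 weeks. Mice were 9.5 weeks old at the start in Normoxia and 14-11w-ZH, 10 weeks in 07-06h-ZH, 9 to 11 weeks in 14-06h-ZH and 14-48h-ZH, and 9 weeks in both JFJ groups. The normoxic mice were therefore older at the end than the mice of the 6 h and 48 h groups. At the station retinas were dissected with no microscope, tissue that had to travel was kept on dry ice, and the light cycle differed from that in Zurich.

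Microglia are the resident macrophages of the retina. They arise outside the neural lineage, settle in the plexiform layers, survey synapses with fine processes and remove debris and synapses that are tagged by complement. Their survival depends on the receptor encoded by *Csf1r*, and neurons hold them in a surveying state through signals such as the fractalkine CX3CL1. In lesions and degeneration microglia lower surveillance genes such as *P2ry12*, *Tmem119* and *Cx3cr1* and raise genes of antigen presentation, lipid handling and phagocytosis. Whole retina was sequenced, so that fewer microglia in a sample and less RNA per microglial cell cannot be told apart.

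Known regulatory letters in the promoters give the sequence context of these genes. PU.1, the master factor of macrophages, binds purine-rich sites with the core GAGGAAG, and hypoxia-inducible factors bind sites with the core ACGTG or GCGTG. A table of RefSeq promoters (build GRCm38.p6, 250 bases before and 50 bases after the gene start) matched 6 of the 10 markers. The promoters of the adjacent genes *C1qb* and *C1qc* are shown because both genes were higher at altitude than at normal pressure after 48 h, and that of *Cx3cr1* because it was lower, and *C1qc* higher, at 7% than at 14% oxygen. Capitals mark matches to any of these cores on either strand, and all 3 genes lie on the minus strand. *C1qb* is at chr4:136886151-136886450, *C1qc* at chr4:136892865-136893164 and *Cx3cr1* at chr9:120068247-120068546.
C1qb promoter: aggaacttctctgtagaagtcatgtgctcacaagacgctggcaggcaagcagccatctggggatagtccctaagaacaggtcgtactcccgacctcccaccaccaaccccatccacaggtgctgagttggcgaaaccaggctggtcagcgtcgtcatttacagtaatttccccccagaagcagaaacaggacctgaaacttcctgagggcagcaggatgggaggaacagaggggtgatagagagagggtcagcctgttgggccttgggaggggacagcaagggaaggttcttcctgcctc
C1qc promoter: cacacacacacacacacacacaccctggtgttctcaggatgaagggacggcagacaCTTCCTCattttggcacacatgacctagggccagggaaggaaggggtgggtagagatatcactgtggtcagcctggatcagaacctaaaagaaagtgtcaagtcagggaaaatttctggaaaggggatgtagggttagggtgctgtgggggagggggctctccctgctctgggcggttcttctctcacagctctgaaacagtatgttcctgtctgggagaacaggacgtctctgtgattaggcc
Cx3cr1 promoter: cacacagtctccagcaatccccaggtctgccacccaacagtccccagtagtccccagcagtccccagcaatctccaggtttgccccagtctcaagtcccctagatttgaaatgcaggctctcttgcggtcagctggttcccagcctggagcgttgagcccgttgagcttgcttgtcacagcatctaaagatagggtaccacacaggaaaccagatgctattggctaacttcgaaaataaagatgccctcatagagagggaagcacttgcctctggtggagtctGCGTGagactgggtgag
*C1qc* held 1 match to the PU.1 core, written CTTCCTC on the gene strand, and so did *Trem2*. Of all 32851 promoters of this length, 13.6% held that core. *C1qb* and *Aif1* held no match to any of the motifs searched. *Cx3cr1* and *Trem2* each held GCGTG or its complement, found in 32.4% of all promoters. *P2ry12* held ACGTG on both strands at 1 overlapping site, a motif present in 19.6% of promoters. The composite site of PU.1 and interferon regulatory factors, was in none of the 6 promoters and in 2.72% of all. A match describes letters only.

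Within the genome (GRCm38), the 3 C1q chains lie side by side on the minus strand of chromosome 4, *C1qb* from 136880129 to 136886187, *C1qc* from 136889804 to 136893065 and *C1qa* from 136895917 to 136898803, with no other annotated gene overlapping them. *P2ry12* (chromosome 3, 59216272 to 59262871) lies inside *Med12l* on the opposite strand and shares 9 exon bases with it. The annotated span of *Cx3cr1* (chromosome 9, 119901616 to 120069879) covers 9 other genes, of which *Gm33858* shares 78 exon bases. *Csf1r* (chromosome 18, 61105572 to 61132149) shares 873 exon bases with *Hmgxb3* on the opposite strand. Whether reads were counted by strand is not given in the sources used here, so shared bases cannot be assigned. *Hmgxb3* was the more abundant of the pair at 9.25 FPKM on average, passed the test in none of the 10 comparisons, and had a Pearson r of 0.08 with *Csf1r* across the 42 mice with group means removed.

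All 10 markers were detected in every mouse. The C1q chains were the most abundant, with *C1qb* at 6.00 FPKM, *C1qc* at 5.43 FPKM and *C1qa* at 5.36 FPKM over the 42 mice. *Tyrobp* averaged 3.59 FPKM and *Csf1r* 2.66 FPKM. The receptor and surface genes were lower, with 1.37 FPKM for *P2ry12*, 1.33 FPKM for *Tmem119*, 1.12 FPKM for *Cx3cr1*, 0.83 FPKM for *Trem2* and 0.57 FPKM for *Aif1*. In Normoxia these levels placed the markers between percentile 27 (*Aif1*) and percentile 45.2 (*C1qb*) of 19079 detected genes. Reads per gene could be recovered in 36 of the 42 libraries. There *Csf1r* had a median of 222 reads and *C1qb* 117 reads, but *Tyrobp* had 33.5 reads, *Tmem119* 30.5, *Trem2* 28.5 and *Aif1* 6, with 1 to 18 reads of *Aif1* per mouse. For *Aif1*, which encodes the calcium-binding protein IBA1 used to stain microglia, this depth gives a counting error of 37.8% per mouse. The spread between mice of a group was above counting error for every marker, from 1.69 times its variance for *C1qc* to 12.2 times for *Csf1r*.

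**Figure D1:**
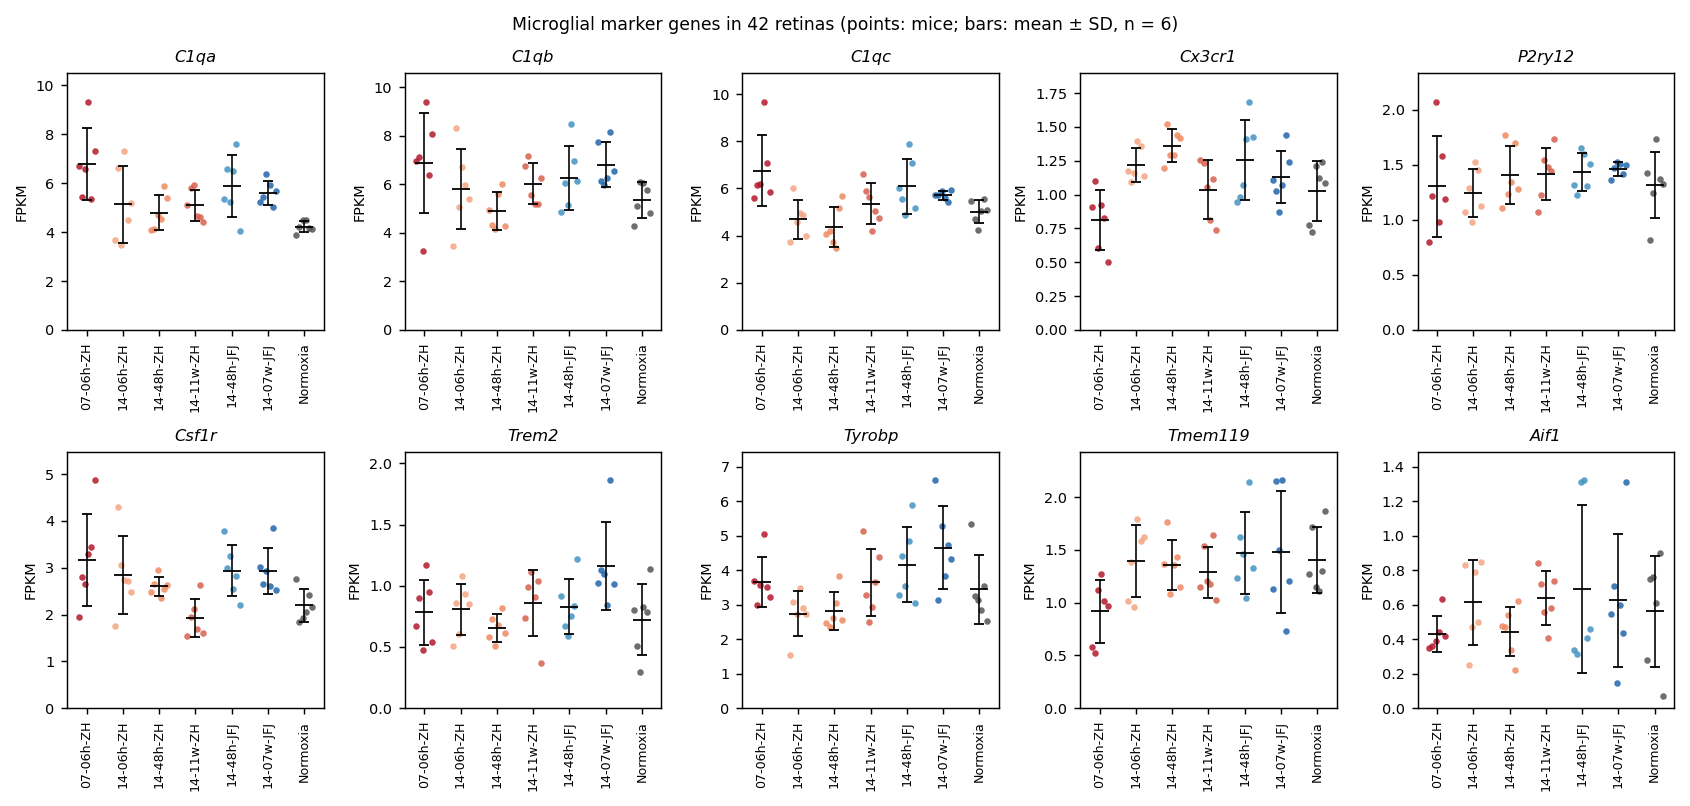
FPKM of the 10 microglial markers in each mouse, by group, with Normoxia on the right; points are mice and bars are mean ± SD (n = 6). All 6 mice of 07-06h-ZH lie above all normoxic mice for C1qa (5.35 to 9.33 against 3.89 to 4.49 FPKM), and Tmem119 is lowest on average in 07-06h-ZH.

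The libraries with recovered reads held 13986520 to 33595709 reads in genes (median 18437268). Beside the markers, other cell types of the eye differed between samples. The summed FPKM of 12 pigment cell genes ranged from 37.5 to 794.7 over the mice, and of 6 lens genes from 0.0695 to 45750. Neutrophil markers summed to at most 5.34 FPKM. The neutrophil gene *Elane* was at 0 in all 42 mice, *Ly6g* in 39, the T cell gene *Cd3e* in 34 and the monocyte receptor *Ccr2* in 22, and the highest value of *Ccr2* was 0.0825 FPKM. Of the macrophages at tissue borders, which share several of the 10 markers, *Cd209f* was at 0 in 39 mice and *Cd163* reached at most 0.261 FPKM, whereas *Lyve1* and *Stab1* were detected in all. The Y-linked genes were expressed in 6 of 6 normoxic mice, in 6 of 6 mice kept at 14% oxygen for 11 weeks, and in 3 of 6 elsewhere. The study used both sexes, and Y-linked expression marks males. Sex was thus unbalanced between Normoxia and every hypoxic group except 14-11w-ZH. The codes in the sample descriptions fall into 5 series, and what a series stands for is not stated. In 8 of the 10 comparisons the groups had different code series, so that code series and group cannot be told apart. Fold changes are differences of log2(FPKM + 0.1), where the added constant shrinks the values of weakly expressed genes, and were tested with limma and Benjamini-Hochberg adjustment over all genes tested. A gene passed at an adjusted p of at most 0.05 at any fold. The largest absolute log2 fold change of a marker was 0.66, below the log2 value of 1 that the study required in addition.

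In 07-06h-ZH, the strongest hypoxia, the markers moved in both directions. The complement genes *C1qa* and *C1qc* and the receptor gene *Csf1r* rose over normoxia, and the surface marker *Tmem119* fell. That is 3 of 10 markers higher and 1 lower, while 18% of all 16962 genes tested were higher and 24.0% lower, a high background against which 4 calls among 10 genes are nothing particular to the markers. Those are 3060 and 4064 genes, against 3639 higher and 3424 lower with median-of-ratios scaling. The median log2 fold change was 0.12 over the 10 markers and -0.03 over all genes. In the same retinas all 6 genes of the hypoxia check list, such as *Egln1* and *Vegfa*, rose.

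*C1qa* encodes a chain of C1q, the protein that starts the classical complement cascade and tags synapses for removal. Its level was 5.35, 6.63 and 9.33 FPKM (lowest, median, highest) in 07-06h-ZH, against 3.89, 4.18 and 4.49 FPKM in Normoxia. The groups did not overlap. The log2 fold change was 0.65 ± 0.12 (SE, n = 6 each, adjusted p = 0.000304), and it passed under all alternatives run. *C1qc* had 5.61, 6.16 and 9.68 FPKM in 07-06h-ZH, against 4.24, 5.08 and 5.54 FPKM in Normoxia. Here too every hypoxic mouse was above every normoxic one, the lowest by a small margin, and the log2 fold change was 0.40 ± 0.12 (SE, adjusted p = 0.0129). With a term for Y-linked expression it was 0.27 (adjusted p = 0.165), with a term for pigment cell genes 0.32 (adjusted p = 0.0880) and by edgeR on recovered reads 0.31 (adjusted p = 0.105). *C1qb*, the remaining chain, had 3.27, 7.05 and 9.41 FPKM in 07-06h-ZH, against 4.26, 5.45 and 6.11 FPKM in Normoxia. In 5 of the 6 hypoxic mice it exceeded all normoxic values, but replicate 3 of 07-06h-ZH was below all of them. The log2 fold change of 0.30 ± 0.20 (SE) did not pass (adjusted p = 0.242), and without that mouse it was 0.49 (adjusted p = 0.00337).

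*Csf1r* encodes the receptor for the growth factors CSF1 and IL-34. It had 1.95, 3.06 and 4.87 FPKM in 07-06h-ZH, against 1.85, 2.11 and 2.77 FPKM in Normoxia. Of the 6 hypoxic mice, 4 were above all normoxic mice, and the ranges overlapped. The log2 fold change was 0.47 ± 0.18 (SE, adjusted p = 0.0404). This call was lost in 8 of the 12 fits that each left out 1 mouse, namely those without replicate 2, 3, 4 or 6 of Normoxia or replicate 2, 4, 5 or 6 of 07-06h-ZH. The highest adjusted p was 0.0966, at a log2 fold change of 0.34, without replicate 6 of 07-06h-ZH. In 07-06h-ZH the pigment cell genes summed to 182, 262 and 521 FPKM, against 53.9, 117 and 494 FPKM in Normoxia, and with a term for that sum the log2 fold change of *Csf1r* was 0.19 (adjusted p = 0.383). With the Y-linked term it was 0.14 (adjusted p = 0.576).

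*Tmem119*, a membrane protein gene that separates microglia from blood-derived macrophages, had 0.53, 0.997 and 1.27 FPKM in 07-06h-ZH, against 1.11, 1.29 and 1.87 FPKM in Normoxia. In 4 of the 6 hypoxic mice it was below all normoxic values. Its log2 fold change was -0.60 ± 0.21 (SE, adjusted p = 0.0327), which rests on 12 to 31 reads per mouse in 07-06h-ZH and 26 to 48 reads in Normoxia, in the libraries with recovered reads. Leaving out replicates 1 or 2 of 07-06h-ZH, or replicates 2 or 6 of Normoxia, ended the call (adjusted p of up to 0.0800). So did the pigment cell term (-0.64, adjusted p = 0.0636), edgeR (-0.77, adjusted p = 0.0557) and normalized counts (-0.61, adjusted p = 0.0543). *Cx3cr1*, which encodes the fractalkine receptor, had 0.50, 0.87 and 1.10 FPKM in 07-06h-ZH, against 0.72, 1.11 and 1.24 FPKM in Normoxia, with wide overlap (log2 fold change -0.32 ± 0.20 SE, adjusted p = 0.219). *P2ry12* encodes the ADP receptor that guides microglial processes to injury, and *Trem2* a receptor for lipids that signals through the adaptor protein encoded by *Tyrobp*. The estimates of these 3 genes and of *Aif1* lay between -0.11 (*Aif1*) and 0.13 (*Trem2*) on the log2 scale, with adjusted p of 0.627 (*Tyrobp*) or higher.

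**Figure D2:**
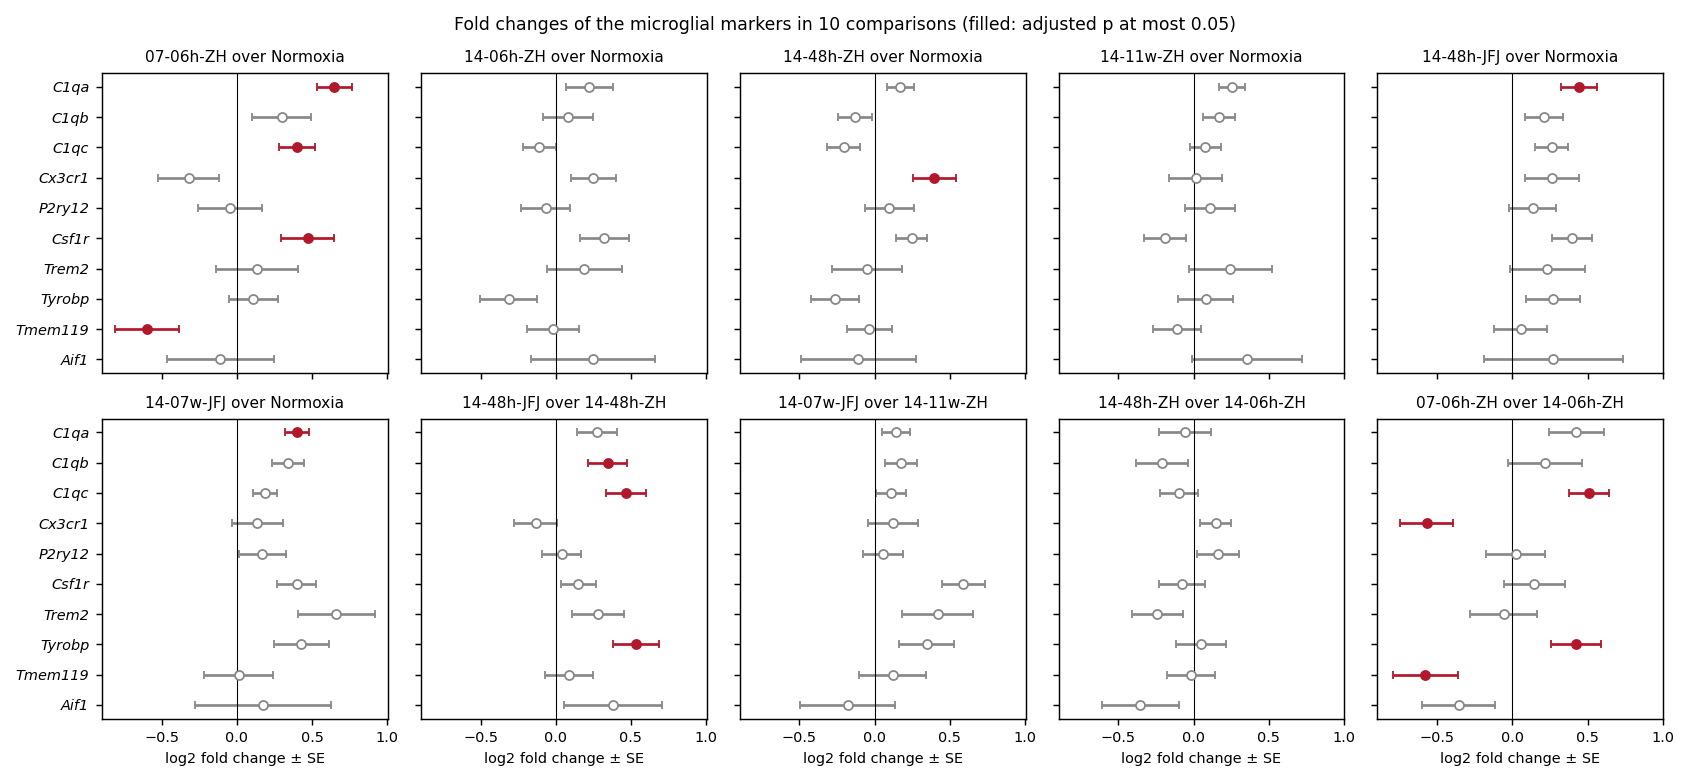
Log2 fold change ± SE of each microglial marker in the 10 comparisons (12 mice each); filled red symbols passed at an adjusted p of at most 0.05. C1qa and C1qc are raised and Tmem119 is lowered in 07-06h-ZH over Normoxia, and no marker reaches an absolute value above 0.66.

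The 7% oxygen group was also set against the milder 6 h exposure, 14-06h-ZH. *C1qc* and *Tyrobp* were higher and *Cx3cr1* and *Tmem119* lower in 07-06h-ZH, 2 of 10 markers in each direction, beside 25.8% of 17048 genes higher and 19.7% lower. *C1qc* had 5.61, 6.16 and 9.68 FPKM in 07-06h-ZH, against 3.72, 4.71 and 6.04 FPKM in 14-06h-ZH, with 4 of 6 mice above all those at 14% oxygen (log2 fold change 0.51 ± 0.13 SE, adjusted p = 0.00526). *Tyrobp* had 2.98, 3.53 and 5.04 FPKM in 07-06h-ZH, against 1.55, 2.82 and 3.47 FPKM in 14-06h-ZH (0.42 ± 0.17 SE, adjusted p = 0.0485). Its call held in 3 of the 12 fits that left out 1 mouse, those without replicate 2 of 07-06h-ZH or replicate 2 or 4 of 14-06h-ZH, and adjusted p without any other mouse was up to 0.119. It was also lost with no filter (adjusted p = 0.0647), with median-of-ratios scaling (0.0606), with all 7 groups in 1 fit (0.0558), without trend and robust options (0.0720), with normalized counts (0.129) and by edgeR (0.353). *Cx3cr1* had 0.50, 0.87 and 1.10 FPKM in 07-06h-ZH, against 1.10, 1.17 and 1.40 FPKM in 14-06h-ZH, and 5 of 6 mice at 7% oxygen were below all mice at 14% (-0.57 ± 0.18 SE, adjusted p = 0.0137). *Tmem119* had 0.53, 0.997 and 1.27 FPKM in 07-06h-ZH, against 0.96, 1.48 and 1.80 FPKM in 14-06h-ZH (-0.58 ± 0.22 SE, adjusted p = 0.0390). This call held in 6 of the 12 fits, and was lost without replicate 1 or 2 of 07-06h-ZH or replicate 2, 4, 5 or 6 of 14-06h-ZH (adjusted p of up to 0.0935), while *C1qc* and *Cx3cr1* passed in all 12. *C1qa* (0.42 ± 0.18 SE, adjusted p = 0.0711) and *C1qb* (0.22 ± 0.25 SE, adjusted p = 0.510) did not pass. *C1qa* did without replicate 2 or 4 of 14-06h-ZH (adjusted p of 0.0340 and 0.0184), and *Aif1* without replicate 2 of 14-06h-ZH (-0.55, adjusted p = 0.0432). The pigment cell genes summed to 182 to 521 FPKM in 07-06h-ZH and 37.5 to 415 FPKM in 14-06h-ZH, and none of the 4 calls passed with a term for this sum. The log2 fold changes were then -0.69 for *Tmem119* (adjusted p = 0.0547), -0.46 for *Cx3cr1* (0.105), 0.32 for *C1qc* (0.103) and 0.21 for *Tyrobp* (0.417). Red blood cell genes summed to 87.6 to 1877 FPKM in 07-06h-ZH, against 33.6 to 83.2 FPKM in 14-06h-ZH, without overlap, and all 5 of them were higher. Border macrophage genes summed to 10.3 to 12.2 FPKM in 07-06h-ZH, against 16.1 to 31.3 FPKM in 14-06h-ZH, also without overlap. Of 10 border macrophage genes tested, though, 0 were higher and 2 lower, with a median log2 fold change of -0.21. The part of either in these differences was not tested. Lens genes exceeded 1000 FPKM in 3 mice of 14-06h-ZH and in no mouse of 07-06h-ZH, and without those 3 mice the 4 log2 fold changes were 0.46 (*C1qc*), 0.57 (*Tyrobp*), -0.56 (*Cx3cr1*) and -0.53 (*Tmem119*), with adjusted p between 0.0580 and 0.170.

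Some ligands and partners of the markers also differed at 7% oxygen. *Cx3cl1*, the neuronal ligand of the fractalkine receptor, fell to 73.8, 79.7 and 91.4 FPKM in 07-06h-ZH, against 94.6, 110 and 117 FPKM in Normoxia, without overlap (log2 fold change -0.42 ± 0.05 SE, adjusted p = 1.48e-05). It was likewise lower than in 14-06h-ZH, where it had 110, 115 and 122 FPKM (-0.51 ± 0.05 SE, adjusted p = 3.71e-07). *Il34*, the main neuronal ligand of the *Csf1r* receptor, had 5.30, 6.17 and 7.52 FPKM in 07-06h-ZH, against 6.97, 7.83 and 9.29 FPKM in 14-06h-ZH (-0.34 ± 0.09 SE, adjusted p = 0.00578). Over normoxia its estimate was -0.10 ± 0.10 (SE, adjusted p = 0.438), and that of *Csf1*, the other ligand, was 0.01 ± 0.13 (SE, adjusted p = 0.948). Of 20 ligands and partners, 19 were tested over normoxia in 07-06h-ZH, and 2 rose and 6 fell, beside the 18% of all genes that were higher and the 24.0% that were lower. Among those that fell were *Calr*, which encodes calreticulin, a C1q-binding chaperone (-0.49 ± 0.06 SE, adjusted p = 3.61e-06), *Cd200*, a neuronal restraint signal (-0.31 ± 0.05 SE, adjusted p = 0.000204), and *Nt5e*, which makes adenosine at the cell surface (-0.22 ± 0.04 SE, adjusted p = 0.000921).

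Of 26 activation genes, 24 were tested in 07-06h-ZH over Normoxia, 3 rose and 1 fell, with a median log2 fold change of 0.07. Of all genes 18% were higher and 24.0% lower, which is also the background of the homeostatic and myeloid lists. *H2-Ab1*, a class II antigen presentation gene, reached 4.22, 7.21 and 9.65 FPKM in 07-06h-ZH, against 1.72, 3.11 and 4.45 FPKM in Normoxia (log2 fold change 1.27 ± 0.23 SE, adjusted p = 0.000487). *Ch25h*, which makes 25-hydroxycholesterol, had 1.06, 2.40 and 3.36 FPKM in 07-06h-ZH, against 0, 0.33 and 1.15 FPKM in Normoxia (2.56 ± 0.53 SE, adjusted p = 0.00163). The chemokine gene *Ccl12* also rose (1.49 ± 0.47 SE, adjusted p = 0.0195), and the lysosomal protease gene *Ctsb*, active in most cells, fell slightly (-0.10 ± 0.04 SE, adjusted p = 0.0412). *H2-Aa*, the gene of the partner chain of *H2-Ab1*, named after its values were seen, did not pass (0.12 ± 0.29 SE, adjusted p = 0.765). Of 16 further genes of the homeostatic microglial profile, 3 rose and 2 fell, with a median of -0.17. Among them were *Mertk*, a receptor for apoptotic cells that pigment cells also express (0.85 ± 0.16 SE, adjusted p = 0.000329), *Cst3* (0.14 ± 0.05 SE, adjusted p = 0.0311), the protease gene *Lgmn* (-0.30 ± 0.06 SE, adjusted p = 0.00120) and *Sall1*, a transcription factor of microglial identity (-1.02 ± 0.37 SE, adjusted p = 0.0358). *Sall1* had 0.0239, 0.158 and 0.262 FPKM in 07-06h-ZH, against 0.144, 0.294 and 0.938 FPKM in Normoxia. Lens genes summed to 0.0695 to 125 FPKM in 07-06h-ZH, against 4.05 to 7261 FPKM in Normoxia (0 of 6 passed). *Sall1* was highest in the lens-rich 14-06h-ZH (up to 1.80 FPKM), and the part of lens in its fall was not tested. The myeloid genes, 27 table rows for 26 symbols because *Itgam* has 2 identifiers, held 3 that rose and 0 that fell. These were *Irf8* (0.87 ± 0.27 SE, adjusted p = 0.0156), *Ncf1* (0.59 ± 0.22 SE, adjusted p = 0.0394) and *Fcer1g* (0.52 ± 0.15 SE, adjusted p = 0.00947), and the list median was 0.27. The summed FPKM of 11 border macrophage genes was 10.3 to 12.2 in 07-06h-ZH and 9.89 to 13.4 in Normoxia, and the part of these cells was not tested. Red blood cell genes summed to 87.6 to 1877 FPKM in 07-06h-ZH and 23.4 to 555 FPKM in Normoxia, 2 of 5 of them rose, and their part was not tested either.

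**Figure D3:**
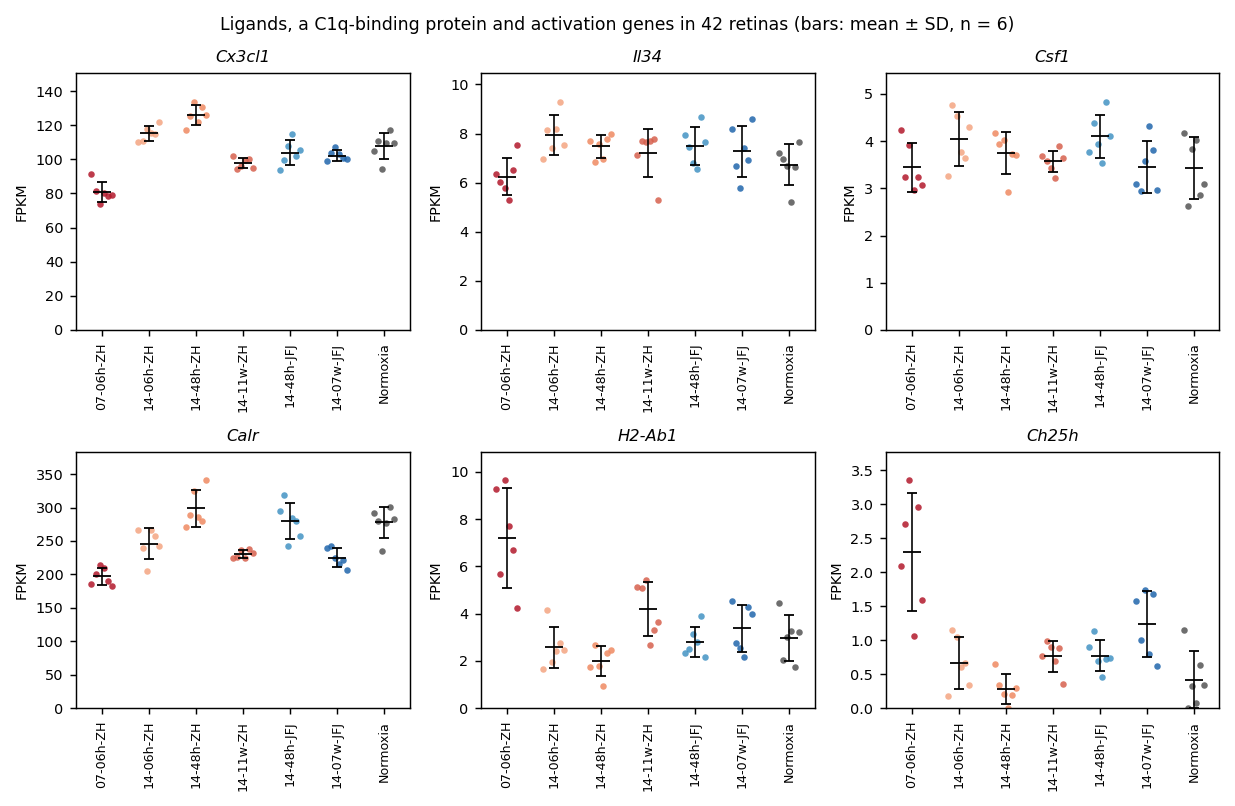
FPKM in each mouse of the ligand genes Cx3cl1, Il34 and Csf1, of Calr and of the activation genes H2-Ab1 and Ch25h, by group with Normoxia on the right; bars are mean ± SD (n = 6). The 6 mice of 07-06h-ZH are below all other mice for Cx3cl1 (73.8 to 91.4 FPKM).

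At 14% oxygen and normal pressure the markers changed little. After 6 h (14-06h-ZH over Normoxia) 0 of 10 passed by limma at the adjusted threshold, beside 9.54% of 17108 genes higher and 24.8% lower. None of the 10 had an unadjusted p below 0.05, the smallest being 0.0692 for *Csf1r*, and edgeR on recovered reads called 1 (*Cx3cr1*, log2 fold change 0.47, adjusted p = 0.0456). *Csf1r* passed without replicate 1 of 14-06h-ZH (0.45, adjusted p = 0.0263) and with the pigment cell term (0.40, adjusted p = 0.00791). After 48 h, *Cx3cr1* alone rose over normoxia, 1 of 10, beside 9.48% of 17041 genes higher and 26.7% lower. It had 1.20, 1.36 and 1.52 FPKM in 14-48h-ZH, against 0.72, 1.11 and 1.24 FPKM in Normoxia, and 5 of 6 hypoxic mice were above all normoxic mice (log2 fold change 0.40 ± 0.14 SE, adjusted p = 0.0392). The call was lost in 7 of 12 fits that left out 1 mouse, namely those without replicate 1 or 2 of Normoxia or any of replicates 2 to 6 of 14-48h-ZH, with adjusted p of up to 0.0856 (log2 fold change 0.31, without replicate 2 of Normoxia). With the pigment cell term *Cx3cr1* did not pass (0.39, adjusted p = 0.103), and *Csf1r* did (0.41, adjusted p = 0.00505). *Cx3cl1* was also higher, at 118, 126 and 134 FPKM in 14-48h-ZH, against 94.6, 110 and 117 FPKM in Normoxia (0.23 ± 0.05 SE, adjusted p = 0.00100). *C1qc* and *Csf1r* did not pass, with log2 fold changes of -0.21 ± 0.11 (SE, adjusted p = 0.169) and 0.25 ± 0.10 (SE, adjusted p = 0.0791). Without replicate 6 of 14-48h-ZH *C1qc* passed at -0.28 (adjusted p = 0.0432), and without replicate 1 of Normoxia, the normoxic mouse with the most pigment cell RNA, *Csf1r* passed at 0.31 (adjusted p = 0.0192).

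Of the 16 other homeostatic genes, 0 rose and 3 fell in 14-48h-ZH over Normoxia. Of all genes 9.48% were higher and 26.7% lower, which is also the background of the myeloid and border macrophage lists. Among the 3 that fell were *Cst3* (log2 fold change -0.44 ± 0.05 SE, adjusted p = 4.99e-06) and *Ctss*, a protease gene of antigen-presenting cells (-0.35 ± 0.07 SE, adjusted p = 0.00100). *Cst3* is active in many cell types. *Ctss* had 6.30, 6.99 and 8.29 FPKM in 14-48h-ZH, against 8.18, 9.09 and 10.0 FPKM in Normoxia. Of the 27 myeloid rows 2 were higher and 2 lower, with 10 estimates above 0 and a median of -0.09. Both higher rows were *Itgam*, the gene of an integrin of myeloid cells (0.70 and 0.72, adjusted p = 0.000655 and 0.000280), and the lower ones were *Cd68*, a lysosomal gene of phagocytes (-0.49 ± 0.13 SE, adjusted p = 0.00606), and *Fcer1g* (-0.46 ± 0.13 SE, adjusted p = 0.0120). Rod markers summed to between 48310 and 52560 FPKM in 14-48h-ZH, against 40460 to 45060 FPKM in Normoxia, without overlap. Of the 6 rod genes 3 were higher and 1 lower. The sums of Müller glia genes (3457 to 3742 against 3006 to 3265 FPKM) and endothelial genes (119 to 129.8 against 103.7 to 108.4 FPKM) were also higher without overlap. The part of these larger sums in the FPKM of other genes was not tested. Border macrophage genes summed to 13.9 to 19.3 FPKM in 14-48h-ZH and 16.1 to 31.3 FPKM in 14-06h-ZH, all above the 9.89 to 13.4 FPKM of Normoxia. The sum rests on few genes, and in 14-48h-ZH over Normoxia *Cbr2* (1.65) and *Lyve1* (0.20) were higher and *Folr2* lower (-0.94) of 10 tested, with a median of 0.04. The part of these cells was not tested. With median-of-ratios scaling 3 markers passed as higher (*C1qa*, *Cx3cr1* and *Csf1r*), and over all genes the calls were 2900 higher and 2898 lower, against 1615 and 4553 without it. For 14-06h-ZH over Normoxia the corresponding counts were 2654 and 2996 with this scaling, against 1632 and 4240 without.

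Between 48 h and 6 h at 14% oxygen (14-48h-ZH over 14-06h-ZH), groups of the same code series, 0 of 10 markers passed by limma and 0 of 9 by edgeR, which did not test *Aif1*, and 0 had an unadjusted p below 0.05. Over all 17172 genes 0.740% were higher and 0.932% lower (167 and 133 genes with median-of-ratios scaling, against 127 and 160 without). The estimates ranged from -0.35 ± 0.26 (SE, *Aif1*) to 0.16 ± 0.14 (SE, *P2ry12*). After 11 weeks (14-11w-ZH over Normoxia), the other pair within 1 code series, again 0 of 10 passed by limma and 0 of 9 by edgeR, beside 2.02% of 17092 genes higher and 1.94% lower (264 and 389 genes with median-of-ratios scaling, against 345 and 331 without). In this pair all 12 mice expressed Y-linked genes and the ages were alike. *C1qa* was the only marker with an unadjusted p below 0.05. It had 4.43, 4.89 and 5.92 FPKM in 14-11w-ZH, against 3.89, 4.18 and 4.49 FPKM in Normoxia, and 5 of 6 hypoxic mice were above all normoxic mice (log2 fold change 0.26 ± 0.09 SE, adjusted p = 0.103, limma). *Csf1r* was lowest of all groups in 14-11w-ZH, at 1.55, 1.82 and 2.64 FPKM, but the difference from Normoxia did not pass (log2 fold change -0.19 ± 0.14 SE, adjusted p = 0.505).

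At high altitude all 10 estimates over normoxia were above 0 after 48 h and after 7 weeks, with medians of 0.26 and 0.27 against 0.02 over all genes in both comparisons, which share the normoxic mice. Over all genes 9717 of 17100 and 9701 of 16984 estimates were above 0. The sign was not stable for every marker. In 14-48h-JFJ the estimate of *Tmem119* was below 0 without replicate 5 of that group (-0.06) or replicate 4 of Normoxia, that of *Aif1* without replicate 6 of Normoxia (-0.08), and that of *Cx3cr1* was at or just below 0 with the Y-linked term. In 14-07w-JFJ *Tmem119* changed sign in 7 of the 12 fits that left out 1 mouse and *Aif1* in 2 (-0.17 without replicate 6 of Normoxia). There *Tmem119* was also below 0 with median-of-ratios scaling (-0.01) and by edgeR (-0.04), and with the Y-linked term *Cx3cr1* was at -0.01 and *Aif1* at -0.19. In each comparison *C1qa* alone passed. In 14-48h-JFJ over Normoxia this was 1 of 10, beside 2.67% of 17100 genes higher and 2.65% lower (399 and 738 genes with median-of-ratios scaling, against 457 and 454 without). *C1qa* had 4.06, 5.93 and 7.61 FPKM in 14-48h-JFJ, against 3.89, 4.18 and 4.49 FPKM in Normoxia, with 5 of 6 mice above all normoxic mice (log2 fold change 0.45 ± 0.12 SE, adjusted p = 0.0417). Of the 12 fits that left out 1 mouse, the call held only in those without replicate 3 or 6 of 14-48h-JFJ, and without any other mouse, controls included, the adjusted p was up to 0.0902, while the log2 fold change stayed between 0.37 and 0.54. In 14-07w-JFJ over Normoxia it was again 1 of 10, beside 1.47% of 16984 genes higher and 0.577% lower (177 genes each way with median-of-ratios scaling, against 249 and 98 without). *C1qa* had 5.01, 5.56 and 6.39 FPKM in 14-07w-JFJ, all above the 6 normoxic mice (0.40 ± 0.08 SE, adjusted p = 0.0181), and passed in all 12 fits that left out 1 mouse. With the Y-linked term the adjusted p was 0.0782 at a log2 fold change of 0.42, and with the pigment cell term it was 0.0307 at 0.45. By edgeR on recovered reads, with 4 normoxic libraries, it was 0.196 at 0.40.

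Other markers at altitude had sizeable estimates that did not pass over normoxia. *Trem2* had 0.84, 1.06 and 1.86 FPKM in 14-07w-JFJ, against 0.29, 0.79 and 1.13 FPKM in Normoxia (log2 fold change 0.66 ± 0.26 SE, adjusted p = 0.189). *Tyrobp* had 3.14, 4.53 and 6.61 FPKM in 14-07w-JFJ, against 2.52, 3.19 and 5.34 FPKM in Normoxia (0.43 ± 0.18 SE, adjusted p = 0.238). *C1qb* had 5.96, 6.39 and 8.17 FPKM in 14-07w-JFJ, with 5 of 6 mice above all normoxic values (0.34 ± 0.11 SE, adjusted p = 0.109). *Csf1r* was estimated at 0.40 ± 0.13 (SE) in 14-48h-JFJ (adjusted p = 0.0925) and 0.40 ± 0.13 (SE) in 14-07w-JFJ (adjusted p = 0.120) over Normoxia. Without replicate 1 of Normoxia it passed in 14-48h-JFJ at 0.46 (adjusted p = 0.0470). *P2ry12* was nearly constant in 14-07w-JFJ at 1.37 to 1.53 FPKM, inside the normoxic range of 0.82 to 1.74 FPKM. Border macrophage genes summed to 13.8 to 30.4 FPKM in 14-48h-JFJ and 19.1 to 33.9 FPKM in 14-07w-JFJ, against 9.89 to 13.4 FPKM in Normoxia, without overlap. Of 10 tested 1 was higher in each, and 8 and 9 estimates were above 0 (medians of 0.33 and 0.47). Here too the sum rests on few genes, among them *Cbr2* and *Lyve1*, which reached 21.8 and 8.24 FPKM over the 42 mice. Markers of some other cell types, but not of all, also had mostly positive estimates at altitude over Normoxia, few of which passed. Of 6 rod genes 0 had an estimate above 0 after 48 h and 2 after 7 weeks. For 6 lens genes the counts were 3 and 1, and for 4 lymphocyte genes 1 and 0. Of 12 pigment cell genes 11 had estimates above 0 after 48 h and after 7 weeks (medians of 1.42 and 1.76), with sums of 86.6 to 776 FPKM in 14-48h-JFJ and 96.5 to 794.7 FPKM in 14-07w-JFJ, against 53.9 to 494 FPKM in Normoxia. So had all 5 red blood cell genes (1.35 and 0.87), 8 and 7 of 8 smooth muscle and pericyte genes (0.87 and 1.08) and 6 and 5 of 6 stromal genes (1.11 and 1.09). The part of any of these cell types in the marker values was not tested.

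The altitude groups were also compared with the normobaric groups at about the same oxygen. These groups differ in code series, dissection, transport and light cycle too, which cannot be told apart from pressure. After 48 h (14-48h-JFJ over 14-48h-ZH), *C1qb*, *C1qc* and *Tyrobp* were higher, 3 of 10, and 0 lower, beside 30.9% of 17099 genes higher and 8.66% lower. The share of markers was thus close to that of all genes, whose median log2 fold change was itself 0.11. With median-of-ratios scaling the calls over all genes were 3124 higher and 3092 lower, against 5283 and 1481 without it. *C1qc* had 4.87, 5.78 and 7.87 FPKM in 14-48h-JFJ, against 3.49, 4.12 and 5.67 FPKM in 14-48h-ZH (log2 fold change 0.47 ± 0.13 SE, adjusted p = 0.0100). *Tyrobp*, the adaptor of several activating receptors, had 3.04, 3.96 and 5.87 FPKM in 14-48h-JFJ, against 2.35, 2.58 and 3.83 FPKM in 14-48h-ZH (0.53 ± 0.16 SE, adjusted p = 0.0119). *C1qb* had 4.88, 6.10 and 8.49 FPKM in 14-48h-JFJ, against 4.15, 4.64 and 6.01 FPKM in 14-48h-ZH (0.34 ± 0.13 SE, adjusted p = 0.0421). The ranges of all 3 genes overlapped. *C1qb* kept the call in 4 of 12 fits that left out 1 mouse, those without replicate 4 or 5 of 14-48h-ZH or replicate 1 or 3 of 14-48h-JFJ, and the adjusted p without any other mouse was up to 0.0955 (log2 fold change 0.25, without replicate 4 of 14-48h-JFJ). After the shift of all genes was removed by median-of-ratios scaling, the log2 fold changes were 0.37 (*C1qc*, adjusted p = 0.0365), 0.43 (*Tyrobp*, adjusted p = 0.0338) and 0.24 (*C1qb*, adjusted p = 0.157). By edgeR none of the 3 passed (adjusted p of 0.0940 for *Tyrobp*, 0.0945 for *C1qc* and 0.327 for *C1qb*).

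The counts of the other lists in 14-48h-JFJ over 14-48h-ZH stand beside the 30.9% of all genes that were higher, and nothing particular to these lists can be read from them. Of the 16 homeostatic genes 4 were higher and 0 lower, among them *Cst3* (log2 fold change 0.55 ± 0.05 SE, adjusted p = 2.63e-07), *Ctss* (0.46 ± 0.09 SE, adjusted p = 0.000933) and *Fcrls* (0.76 ± 0.27 SE, adjusted p = 0.0350). Of 24 activation genes tested 6 were higher and 1 lower, among them the lipid genes *Lpl* (0.46 ± 0.08 SE, adjusted p = 0.000236) and *Apoe* (0.59 ± 0.11 SE, adjusted p = 0.000876). *Apoe* is also a gene of Müller glia. Of the 20 ligands and partners 4 were higher and 1 lower. The ligand gene *Cx3cl1* was lower, at 93.8, 104 and 115 FPKM in 14-48h-JFJ, against 118, 126 and 134 FPKM in 14-48h-ZH (-0.28 ± 0.05 SE, adjusted p = 0.000128). *C1s1*, which encodes a protease of the complex that C1q belongs to, was higher (0.67 ± 0.18 SE, adjusted p = 0.00637). In the same comparison 11 of 12 pigment cell genes were higher, with sums of 86.6 to 776 FPKM in 14-48h-JFJ and 57.4 to 85.7 FPKM in 14-48h-ZH, which do not overlap. Rod sums were lower, 34990 to 41070 FPKM in 14-48h-JFJ against 48310 to 52560 FPKM in 14-48h-ZH. With a term for pigment cell genes *C1qb* passed at 0.81 (adjusted p = 0.00521), while *C1qc* was at 0.65 (adjusted p = 0.0621) and *Tyrobp* at 0.71 (adjusted p = 0.0869). Because the pigment sums of these groups do not overlap, this fit cannot separate pigment cell RNA from group, and no conclusion is drawn from it. All 5 red blood cell genes were higher, with sums of 75.1 to 418 FPKM in 14-48h-JFJ and 47.8 to 86.2 FPKM in 14-48h-ZH. Of 10 border macrophage genes tested 3 were higher, with sums of 13.8 to 30.4 FPKM in 14-48h-JFJ and 13.9 to 19.3 FPKM in 14-48h-ZH. The part of either was not tested.

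The long exposures (14-07w-JFJ over 14-11w-ZH) also differed in duration and in age at the end, which cannot be told apart from pressure. Y-linked genes were expressed in 3 of 6 mice of 14-07w-JFJ and in 6 of 6 of 14-11w-ZH. In this comparison 0 of 10 markers passed by limma, beside 1.07% of 17037 genes higher and 0.470% lower (148 and 126 genes with median-of-ratios scaling, against 183 and 80 without). At an unadjusted p below 0.05 only *Csf1r* was found. It had 2.52, 2.80 and 3.84 FPKM in 14-07w-JFJ, against 1.55, 1.82 and 2.64 FPKM in 14-11w-ZH, with 4 of 6 mice above all those at normal pressure. Its log2 fold change was 0.59 ± 0.14 (SE, adjusted p = 0.0506), and it passed by edgeR (0.53, adjusted p = 0.0460). It also passed without replicate 5 of 14-11w-ZH (0.68, adjusted p = 0.0402) or without replicate 6 of 14-07w-JFJ (0.63, adjusted p = 0.0393). With the pigment cell term it was 0.38 (adjusted p = 0.399). The pigment cell genes summed to 96.5, 665.7 and 794.7 FPKM (lowest, median, highest) in 14-07w-JFJ, against 50.35, 105.1 and 147.1 FPKM in 14-11w-ZH. These sums overlap little, so this fit separates pigment cell RNA from group poorly, and no conclusion is drawn from it. The complement gene *C4b*, which acts just after C1q and C1s, was higher (0.67 ± 0.13 SE, adjusted p = 0.0221). Of 19 ligands and partners tested 1 was higher and 0 lower, with a median log2 fold change of 0.01. The difference between the long and the short altitude effect was tested in 24 mice and did not pass for any marker. Differences in duration, age at the end and Y-linked expression enter it too. The smallest adjusted p was 0.0799 for *Csf1r*, whose long effect was larger by 0.44, and that of *C1qc* was 0.126, with a long effect smaller by 0.36 (-0.36).

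*Csf1r* followed the pigment cell genes from mouse to mouse. With group means removed, its log2 level correlated with the log2 sum of the 12 pigment cell genes across 42 mice (Pearson r = 0.71, Spearman rho = 0.74, permutation p = 1e-05 for both, the smallest that 100000 permutations can give). Adjusted over the 40 relations computed between the 10 markers and 4 marker sums the p was 0.0004, and without the 2 mice farthest from the median r was 0.72. None of the other 39 relations passed. For *C1qa* and the pigment sum r was 0.15 (rho = 0.05, adjusted p = 0.651), for *Cx3cr1* -0.17 (rho = -0.18, adjusted p = 0.571). In 14-06h-ZH the mouse with the most pigment cell RNA, replicate 2 at 415 FPKM, had the highest *Csf1r* level of its group at 4.30 FPKM, and the mouse with the least, replicate 1 at 37.5 FPKM, had the lowest at 1.75 FPKM.

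**Figure D4:**
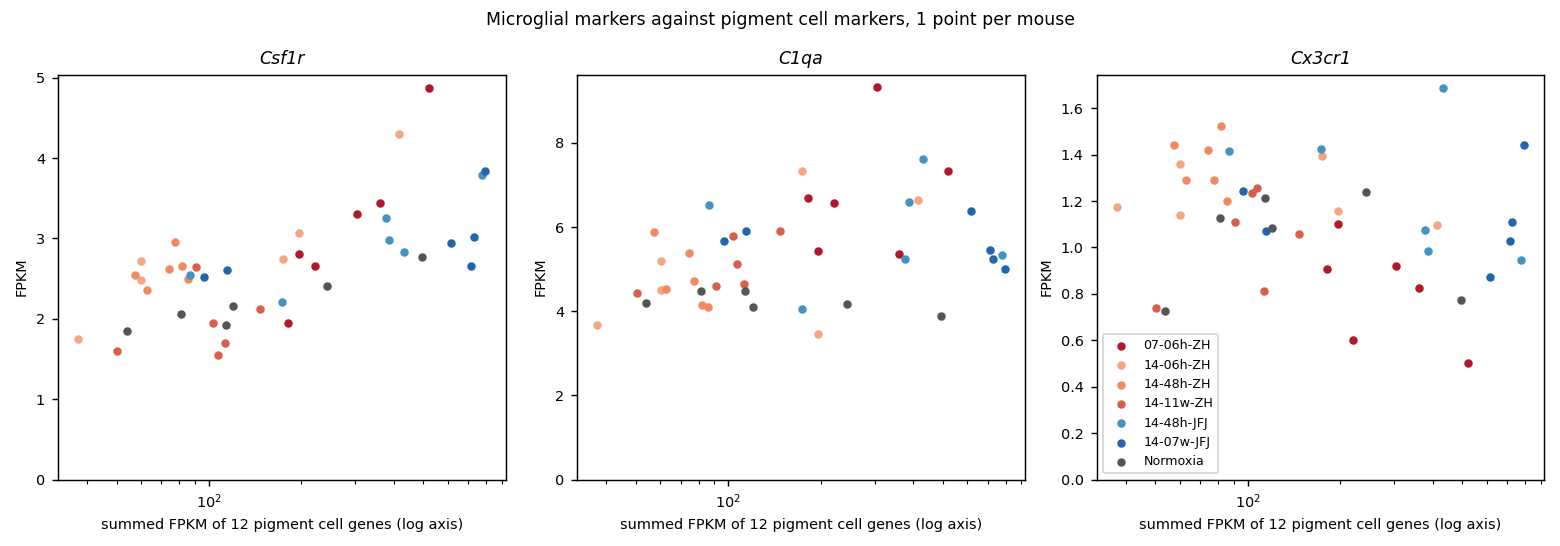
FPKM of Csf1r, C1qa and Cx3cr1 in each mouse against the summed FPKM of 12 pigment cell genes (log axis), coloured by group. Csf1r increases along the axis within groups (r = 0.71 with group means removed), and C1qa does not (r = 0.15).

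The markers as a set varied together only in part. Of the 45 pairs, 32 had a positive r with group means removed, and the median was 0.13. By Pearson's r 2 pairs passed the permutation test within groups after adjustment over the 45 pairs, and by Spearman's rho 0 did. These were *C1qa* with *C1qc* (r = 0.56, rho = 0.51, adjusted p = 0.0342 for r and 0.0589 for rho, r = 0.51 without 2 mice) and *C1qc* with *Tyrobp* (r = 0.495, rho = 0.425, adjusted p = 0.0342 and 0.0589, r = 0.493 without 2 mice). Among the C1q chains *C1qa* and *C1qb* had r = 0.47 (rho = 0.45, adjusted p = 0.0898 and 0.0589), and *C1qb* and *C1qc* r = 0.44 (rho = 0.34, adjusted p = 0.0898 and 0.183). The lowest r was -0.36 between *Trem2* and *Aif1* (rho = -0.33, adjusted p = 0.171 and 0.183), both genes of low counts. In each mouse both genes of a pair were measured in the same library, at the same depth.

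**Figure D5:**
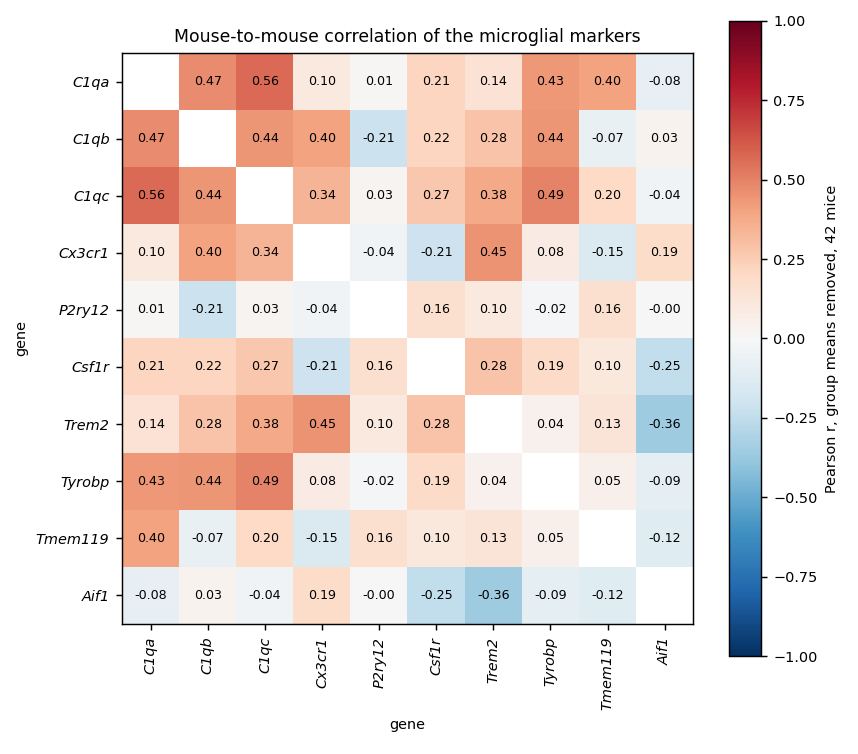
Pearson r of log2(FPKM + 0.1) between each pair of microglial markers across 42 mice after removal of group means; numbers are r and the diagonal is left blank. Most of the highest values join C1qa, C1qb, C1qc and Tyrobp (up to 0.56), Cx3cr1 and Trem2 reach 0.45, and the lowest is -0.36 between Trem2 and Aif1.

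The ratio of *C1qa* to *C1qb* averaged 1.08 ± 0.46 in 07-06h-ZH, 0.95 ± 0.19 in 14-48h-JFJ, 0.84 ± 0.17 in 14-07w-JFJ and 0.80 ± 0.08 in Normoxia (SD, n = 6), the lowest of the 7 groups. The group 14-48h-ZH had a mean of 0.99 ± 0.18. For *C1qc* over *C1qb* the highest mean was 1.07 ± 0.43 (07-06h-ZH) and the lowest 0.83 ± 0.14 (14-06h-ZH), with 0.96 ± 0.20 for Normoxia. In 07-06h-ZH replicate 3 had the highest *C1qa* to *C1qb* ratio, 2.01. The ratio of *Il34* to its receptor gene *Csf1r* was 2.10 ± 0.62 in 07-06h-ZH and 3.11 ± 0.54 in Normoxia, and that of *Cx3cl1* to *Cx3cr1* was 106 ± 30.0 in 07-06h-ZH and 110 ± 28.2 in Normoxia (SD, n = 6), within 1 SD of each other. Ratios were not tested.

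Genes with a pattern most like that of the 10 markers were ranked by Pearson r with the mean z-score of the markers over the 42 mice, among 13288 genes with a mean of at least 1 FPKM. The first 8 were *Necab2* (r = 0.72), *Gas6* (0.70), *Ifitm3* (0.69), *C4b* (0.66), *Man1a* (0.65), *Hsd17b11* (0.65), *Clec18a* (0.64) and *Cspg5* (0.63). With group means removed they were *Ctss* (0.66), *Gas6* (0.64), *Necab2* (0.64), *Slc6a12* (0.62), *Pcbp1* (0.62), *C4b* (0.61), *Gstt1* (0.61) and *E130218I03Rik* (0.58). *Gas6*, *Necab2* and *C4b* were in both. These values are a description across mice, and within each mouse all genes were measured in the same library.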

How the data were processed

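RNA of 42 mouse retinas was sequenced as paired ends on an Illumina NovaSeq. The authors aligned reads with STAR to GRCm38 and deposited FPKM and normalized counts per gene. The counting tool and its use of strand are not given in the sources used here. The normalized counts, a signal scaled by the authors for library size before they were deposited, served only for an alternative and for recovering reads (tolerance 0.1 for a whole step), which gave 13986520 to 33595709 reads in 36 libraries. Samples were grouped by GEO labels, and 0 columns were left unmatched. The members and gene lists were chosen with earlier results of these data known.

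FPKM were tested as log2(FPKM + 0.1) with limma 3.58.1 (trend and robust options, R 4.3.3) on the 12 mice of each comparison, with Benjamini-Hochberg adjustment over all genes tested. Following the study's filter, a gene was dropped where over 3 mice of a group had 0 FPKM. All 10 markers were tested in each comparison. The genes named are the 10 markers, at most 4 genes of each other list with the smallest p, ligands and receptors of the markers, and the 8 genes most like them. Correlations used 100000 permutations within groups (Python 3.11.15, numpy 2.4.6, pandas 2.3.3, scipy 1.17.1). Alternatives were a pseudocount of 1, no filter, 1 fit of all 7 groups, scaling by median of ratios, a replicate block, no trend or robust option, and leaving out each mouse. Added after seeing the data were normalized counts with limma, edgeR 4.0.16 on recovered reads, which tested 9 of the 10 markers (not *Aif1*), terms for Y-linked (not in 14-11w-ZH over Normoxia, where all mice expressed them) or pigment cell genes, leaving out each mouse for both comparisons with 14-06h-ZH, and leaving out libraries whose lens genes sum to over 1000 FPKM. The fits were tested on simulated data. In no comparison did all same-numbered mice have deviations with a correlation over 0.1 (in 14-48h-ZH over Normoxia all 6 were positive, the lowest 0.0207), so the numbers were not used as pairs.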

Additional observations from a re-analysis of the deposited data

Results flagged for a closer look

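In 70 sets of 6 mice, 1 for each marker and group, 5 had a mouse far from the other 5 by Dixon's test at its 95% critical value, which chance alone exceeds in about 1 in 20 sets. Replicate 4 of 07-06h-ZH stood out for *C1qc* (9.68 FPKM) and *Tyrobp* (5.04 FPKM), and without it the log2 fold change of *C1qc* over Normoxia was 0.29 (adjusted p = 0.0207, limma). Replicate 5 of 14-07w-JFJ was far above its group for *Trem2* (1.86 FPKM), replicate 1 of Normoxia for *Tyrobp* (5.34 FPKM) and replicate 5 of 07-06h-ZH for *Aif1* (0.632 FPKM), a gene of few reads.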

How the results depend on the processing

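Of 2280 values recomputed for single markers, 2146 stayed on the same side of the threshold, 110 lost and 24 gained the call, and 0 calls reversed. A further count of 127 covers estimates that changed sign but passed in neither fit. In 14-11w-ZH over Normoxia and 14-48h-ZH over 14-06h-ZH, 0 markers passed in every fit run (the Y-linked term could not be fitted in the first). For 07-06h-ZH over Normoxia, 4 markers passed, 2 with the Y-linked term, 1 with the pigment term, 1 by edgeR and 2 to 5 without 1 mouse. For 14-06h-ZH over Normoxia the count was 0, and 1 by edgeR, 1 with the pigment term and 0 to 1 without 1 mouse. For 14-48h-ZH over Normoxia it was 1, against 3 with median-of-ratios scaling, 2 with normalized counts, 2 by edgeR, 0 with all 7 groups in 1 fit, 0 with the Y-linked term, 0 without lens-rich libraries and 0 to 1 without 1 mouse. For 14-48h-JFJ over Normoxia it was 1, against 2 with normalized counts, 0 without the filter, 0 without trend and robust options, 0 by edgeR, 0 with either term and 0 to 1 without 1 mouse. For 14-07w-JFJ over Normoxia it was 1, against 0 with all 7 groups in 1 fit, with normalized counts, by edgeR and with the Y-linked term. For 14-48h-JFJ over 14-48h-ZH it was 3, against 1 with normalized counts, 1 with the pigment term (not separable from group here, as the sums do not overlap), 1 without lens-rich libraries, 0 by edgeR and 2 to 3 without 1 mouse. For 14-07w-JFJ over 14-11w-ZH it was 0, and 1 with all 7 groups in 1 fit, with normalized counts and by edgeR, and 0 to 1 without 1 mouse. For 07-06h-ZH over 14-06h-ZH it was 4, against 2 without the filter, 2 without trend and robust options, 1 by edgeR, 0 with the pigment term, 0 without lens-rich libraries and 2 to 5 without 1 mouse. The cause of these changes was not tested, and edgeR had 4 to 6 libraries per group and did not test *Aif1*. With the replicate number as a block, 2 markers passed in 07-06h-ZH over Normoxia (*Tmem119* did not, adjusted p = 0.0613) and 0 in 14-48h-ZH over Normoxia, while in 07-06h-ZH over 14-06h-ZH *C1qa* passed in addition (0.42, adjusted p = 0.0286), as it did with all 7 groups in 1 fit (adjusted p = 0.0112). The number of correlated pairs was 2, and 6 with group means kept. Reads per mouse limit *Aif1* most, with a median of 6.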
